A study of Mus musculus with 12 samples.

Results

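The 36 genes described here are the core autophagy machinery and its cargo receptors, taken by gene symbol from a table of 16335 genes measured in mouse sarcomas under 4 treatments. All 36 were in the table and none was lost to a filter on low values. They fall into the ULK1 initiation complex (5 genes), the class III PI3-kinase complex (6 genes), the factors of phagophore growth (5 genes), the enzymes that process and conjugate the ATG8 proteins (10 genes), the ATG8 family (5 genes) and the cargo receptors (5 genes). The fewest reads in any library for any of them was 34, for Atg10, and the most was 12851, for Sqstm1.

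Autophagy encloses cytoplasm in a double membrane, the autophagosome, and delivers it to the lysosome for breakdown, so that starved cells regain amino acids. Initiation, lipid signalling and membrane growth build the cup-shaped phagophore, small ubiquitin-like proteins of the ATG8 family are fixed to its lipid, and receptors such as p62 tie cargo to them. The pathway is controlled largely through protein modification, membrane traffic and turnover, and in part through transcription. Values below are transcript levels, which measure neither autophagosomes nor the rate at which they are cleared.

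Per the labels, 12 libraries were made from frozen tumors of BVMA01R, a line of mouse sarcoma cells with the genotype Myf5-Cre;p53-/-;Ass1-/-, grown in female C57BL/6J mice, with 3 libraries in each of 4 groups. The groups were ADI-PEG20 plus chloroquine, ADI-PEG20 alone, chloroquine alone and no treatment, here called untreated. ADI-PEG20 is a pegylated arginine deiminase that removes arginine from the circulation, and cells without argininosuccinate synthetase (Ass1) cannot make arginine from citrulline. Chloroquine collects in lysosomes, raises their pH and blocks the last step of autophagy. The design asks how each drug and their combination move gene expression, and all 4 groups carry the same deletions and come from 1 cell line, so no tumor with intact Ass1 serves as a comparison. The labels used here give neither dose nor duration. Whether the 3 libraries of a group came from different mice is not stated in them, and p-values measure the spread between these libraries.

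Library size was 15501998 to 28410940 reads, and 1 read was worth 0.0320 to 0.0794 CPM, the reads of a gene scaled to a common library size. The library ADI-PEG20 1 stood apart: it was the highest or the lowest of the 12 for 41.1% of all genes and for 16 of the 36 autophagy genes (44.4%). Genes listed by the genotype still gave reads, with Ass1 at 6.83 to 18.8 CPM and Trp53 at 13.0 to 26.8 CPM, in tumors that also hold host cells; the table does not show which exons the reads came from. The 10 mesenchymal and sarcoma lineage markers were present in every library, with a mean between 9.89 and 10.58 log2 CPM. Of 17 skeletal muscle markers none was at 0 reads in any library, and their summed level was 658 to 961 CPM with ADI-PEG20 plus chloroquine, 430 to 8780 CPM with ADI-PEG20, 3160 to 4220 CPM with chloroquine and 795 to 6600 CPM in untreated tumors. Of 12 macrophage markers none was at 0 either, and their summed level was 1660 to 2120 CPM with ADI-PEG20 plus chloroquine, 1400 to 2010 CPM with ADI-PEG20, 1100 to 1380 CPM with chloroquine and 1140 to 1360 CPM in untreated tumors. In whole tumors, fewer cells of a type and less RNA per cell cannot be told apart.

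Markers of other cell types were measured in the same way. Adipocyte markers (8 genes, none at 0 reads) summed to 62.3 to 142 CPM with ADI-PEG20 plus chloroquine, 52.3 to 356 with ADI-PEG20, 31.6 to 50.2 with chloroquine and 33.9 to 64.9 in untreated tumors. T cell markers (10 genes, Cd3g at 0 in some library) summed to 17.6 to 31.5 CPM with the combination, 29.6 to 32.6 with ADI-PEG20, 16.4 to 46.6 with chloroquine and 11.5 to 20.8 in untreated tumors. For the combination against untreated, 6 of 8 endothelial, 4 of 6 erythroid and 4 of 8 keratinocyte markers were above 0, and Slc4a1 of the erythroid and Krt5, Krt15 and Dsg3 of the keratinocyte list were at 0 reads in some library. Keratinocyte markers summed to 44.2 to 83.7 CPM with the combination and 36.6 to 50.7 with ADI-PEG20. Their sums were 7.83 to 25.8 with chloroquine and 6.59 to 60.3 in untreated tumors. Krt14 of that list was 2.91 log2 units higher for the combination against untreated, without overlap (limma adjusted p = 0.20). A list for RNA quality (8 mitochondrial mRNAs with Malat1, Neat1, Gm26917 and Gm42418) summed to 68400 to 76300 CPM with the combination, 76200 to 307000 with ADI-PEG20, 95800 to 118000 with chloroquine and 98900 to 203000 in untreated tumors, so that the combination lay below every chloroquine and untreated library. The highest sums were in ADI-PEG20 1 (307000 CPM) and untreated 2 (203000 CPM). The median gene of that list was 0.14 log2 units above 0 for the combination against untreated, opposite in sign to the sum.

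The autophagy transcripts were nearly level across the 4 treatments. No member passed the test in any of 8 comparisons (limma on log2 CPM, adjusted p under 0.05 over 16335 genes), and the share of all genes that passed was 0% in each. The mean of the 36 genes ran from 5.20 to 5.36 log2 CPM over the 12 libraries. By group this mean was 5.29 ± 0.06 log2 CPM with ADI-PEG20 plus chloroquine, 5.28 ± 0.07 with ADI-PEG20, 5.27 ± 0.02 with chloroquine and 5.29 ± 0.05 in untreated tumors (SD, n = 3 each), and the groups overlapped. Without ADI-PEG20 1 no member passed the test either, and the median log2 difference of the members for ADI-PEG20 against untreated was -0.02, beside -0.01 with it.

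**Figure D1:**
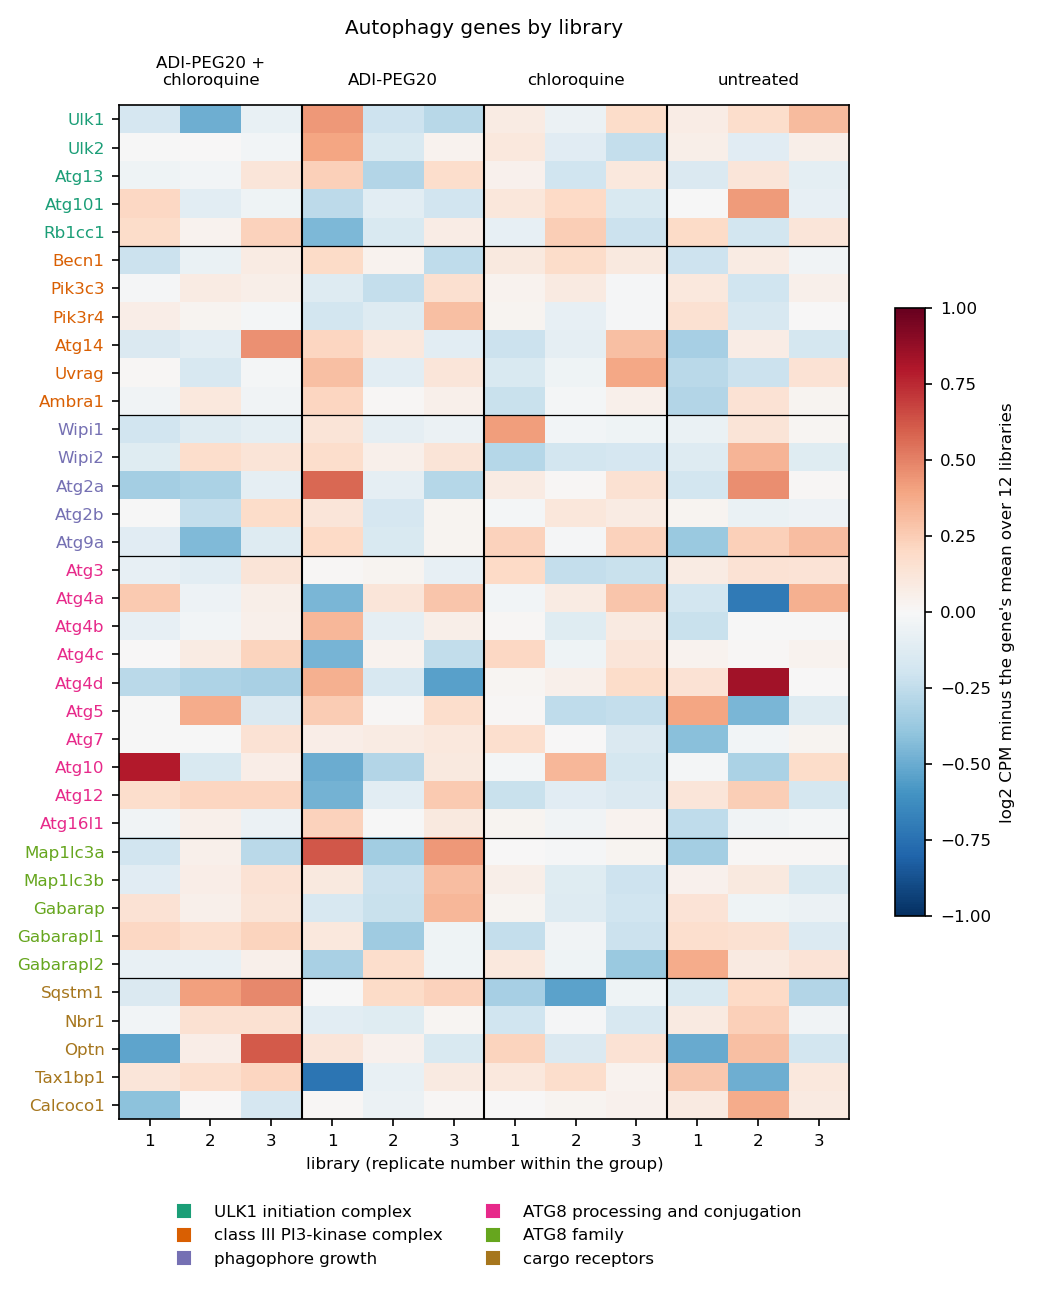
Heat map of the 36 autophagy genes, down the page by role, in the 12 libraries, across the page by treatment and replicate. The colour is the log2 CPM minus the gene's own mean over the 12 libraries. No role keeps to 1 colour throughout a treatment, and the strongest colours sit in single libraries, among them ADI-PEG20 1, which is the highest or the lowest library for 16 genes.

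How small a difference these data could show was read from the 95% intervals. Against untreated tumors, the interval lay within 1 log2 unit of 0 on either side, a 2-fold change, for 35 of 36 genes with ADI-PEG20 plus chloroquine, for 35 with ADI-PEG20 and for all 36 with chloroquine. The exception was Atg4d, an ATG4 protease, with both treatments that contain ADI-PEG20. Among all genes the share was 59.7% with the combination, 59.0% with ADI-PEG20 and 62.5% with chloroquine. All genes were not matched to the members for level, and scarce genes spread more. The median SD within groups was 0.672 at 0 to 1 log2 CPM, below every member's mean, and 0.231 at 5 to 6. The median interval reached 0.37 log2 units to either side of the difference. A shift of a single gene by less than that could usually not be told from 0. These intervals are not adjusted for the number of genes tested, and passing the adjusted threshold needs a larger shift. With ADI-PEG20 plus chloroquine against untreated, Ulk1 at -0.43 log2 units (limma adjusted p = 0.56) and Atg4d at -0.63 (limma adjusted p = 0.55) did not pass it.

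The differences themselves were small. With ADI-PEG20 plus chloroquine against untreated, 23 members were above 0 and 13 below, the median was 0.05 and the range ran from -0.63 for Atg4d to 0.33 for Sqstm1, all on the log2 scale, and 50.8% of all genes were above 0. With ADI-PEG20 alone 18 members were above and 18 below, with a median of -0.01, and with chloroquine alone 17 were above and 19 below, with a median of -0.02. These comparisons share the untreated libraries. The median size of the difference, leaving out its sign, was 0.12 log2 units for the members against 0.22 for all genes with the combination, 0.17 against 0.24 with ADI-PEG20, and 0.11 against 0.18 with chloroquine. All genes were again not matched to the members for level.

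**Figure D2:**
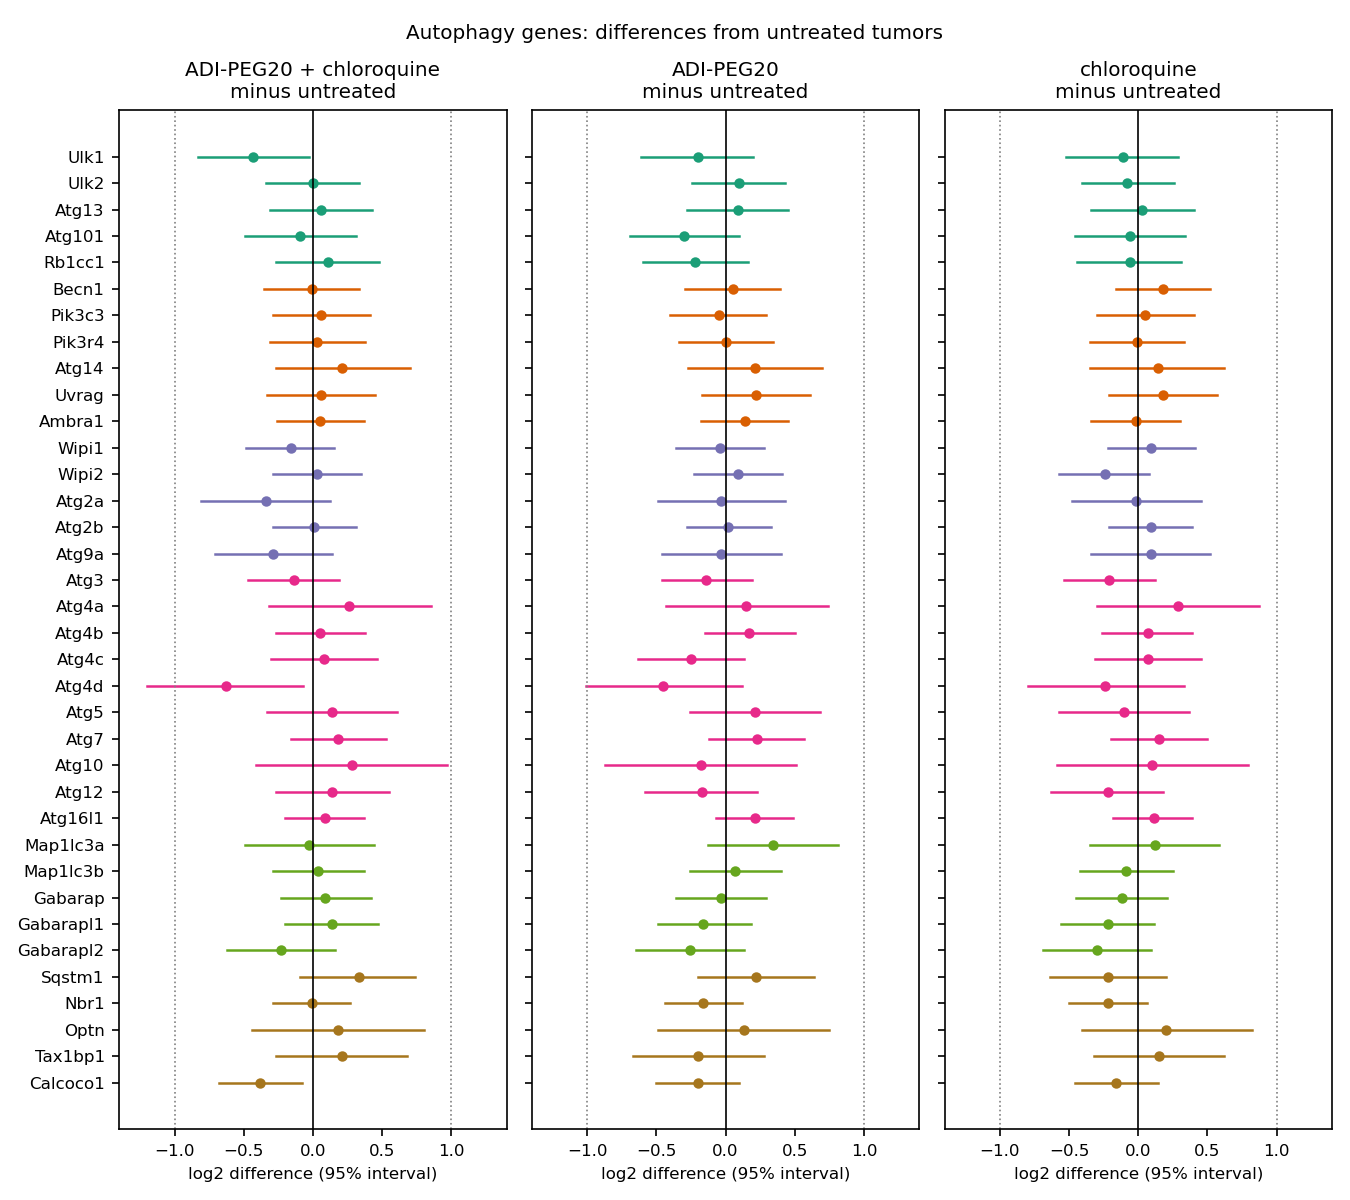
Log2 difference from untreated tumors for the 36 autophagy genes, with 95% intervals from limma, in 3 panels for ADI-PEG20 plus chloroquine, ADI-PEG20 and chloroquine; colours give the role as in the heat map and dotted lines mark 1 log2 unit. The points lie close to 0 in every panel, and Atg4d is the gene whose interval crosses the dotted line, in the panels of ADI-PEG20 plus chloroquine and of ADI-PEG20.

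A count of genes with an unadjusted p under 0.05 is given beside its share among all genes. With ADI-PEG20 plus chloroquine against untreated it took in 3 members, Calcoco1, Atg4d and Ulk1, all lower, while 8.65% of all genes had such a p and 3.95% had it with a lower value. Against chloroquine alone the combination took in 2 members, Sqstm1 and Gabarapl1, both higher (6.78% of all genes, 3.11% higher). ADI-PEG20 pooled over both chloroquine states took in Sqstm1, higher, and Atg4d, lower (9.8% of all genes), and the interaction took in Gabarapl1, with a positive value (4.26% of all genes, 1.9% positive). No member had such a p with ADI-PEG20 alone against untreated (8.31% of all genes), with chloroquine alone against untreated (3.4%), with the combination against ADI-PEG20 (3.42%) or with chloroquine pooled over both ADI-PEG20 states (2.23%). These 5 genes are given below in every library, and the rest by role.

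The members also differed in abundance. Per kilobase of annotated exon, Sqstm1 was the highest in untreated tumors at 103 ± 18.5 CPM per kb, then Gabarap at 83.6 ± 6.29, Map1lc3a at 36.5 ± 4.86, Gabarapl1 at 20.6 ± 2.33, Wipi1 at 18.0 ± 1.27 and Calcoco1 at 15.7 ± 1.85 (SD, n = 3). The ranges of 1 SD around the mean met for Sqstm1 and Gabarap, for Gabarapl1 and Wipi1, and for Wipi1 and Calcoco1. The range of Map1lc3a met that of neither of its neighbours. All these genes were measured in the same 3 libraries, which such ranges leave out of account, and the order was not tested. The lowest were Optn at 2.70, Atg14 at 2.44, Atg10 at 2.17 and Atg4d at 1.89 CPM per kb. Exon length here covers every annotated exon of a gene, so genes with rarely used exons read lower on this scale.

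The ULK1 complex starts autophagy. Ulk1 and Ulk2 are its kinases, Atg13 and Atg101 are adaptors, and Rb1cc1 (FIP200) is the scaffold. Ulk1 (chr5:110784488-110810097, minus strand, GRCm38) had 6.08, 5.76 and 6.17 log2 CPM with ADI-PEG20 plus chloroquine, 6.68, 6.04 and 5.97 with ADI-PEG20, 6.33, 6.19 and 6.43 with chloroquine, and 6.32, 6.42 and 6.56 in untreated tumors. The 3 libraries of the combination lay below every chloroquine and every untreated library, while the ADI-PEG20 libraries overlapped all groups. Against untreated the combination was 0.43 log2 units lower (log2 difference -0.43, SE 0.19, 95% interval -0.83 to -0.03, limma adjusted p = 0.56). The other 4 genes of the complex ran from -0.09 log2 units for Atg101 to 0.11 for Rb1cc1 in that comparison. Atg101 had 3.97, 4.13 and 4.04 log2 CPM with ADI-PEG20 alone against 4.23, 4.66 and 4.15 in untreated tumors, without overlap (log2 difference -0.30, SE 0.18, adjusted p = 0.66).

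The class III PI3-kinase complex marks the phagophore with a phosphorylated lipid. Pik3c3 (VPS34) is the kinase, Pik3r4 its regulatory subunit, Becn1 (Beclin 1) the scaffold that Atg14 or Uvrag joins, and Ambra1 a regulator of Becn1. Its 6 genes stayed near untreated, with log2 differences from -0.01 to 0.21 for ADI-PEG20 plus chloroquine (5 above 0), from -0.05 to 0.22 for ADI-PEG20 (5 above 0) and from -0.02 to 0.18 for chloroquine (4 above 0). Becn1 had 4.86, 5.01 and 5.16 log2 CPM with ADI-PEG20 plus chloroquine, 5.27, 5.11 and 4.82 with ADI-PEG20, 5.17, 5.26 and 5.17 with chloroquine, and 4.87, 5.16 and 5.04 in untreated tumors. Its chloroquine libraries were above both the untreated and the combination libraries, by 0.18 log2 units against untreated (SE 0.16, adjusted p = 1). Exons of an antisense gene, Cntd1, cover 43.9% of the exon bases of Becn1, and the sources used here do not say whether counting used strand, so reads of the pair could be mixed.

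Wipi1 and Wipi2 bind that lipid, Atg2a and Atg2b carry lipids into the growing membrane, and Atg9a is the lipid scramblase of the vesicles that seed it. With ADI-PEG20 plus chloroquine all 5 were below ADI-PEG20 alone (median log2 difference -0.13, range -0.31 to -0.01) and 4 of 5 were below chloroquine alone (median -0.26), none with an unadjusted p under 0.05. Wipi1 had 6.09, 6.15 and 6.18 log2 CPM with the combination, 6.41, 6.19 and 6.22 with ADI-PEG20, 6.70, 6.25 and 6.24 with chloroquine, and 6.21, 6.41 and 6.30 in untreated tumors. Its combination libraries were below all the other 9, at a distance from the nearest that was small beside the spread, and the log2 difference from untreated was -0.16 (SE 0.15, adjusted p = 0.79). Wipi2 went the other way in the comparison with chloroquine, with 6.29, 6.58 and 6.54 log2 CPM in the combination against 6.12, 6.22 and 6.24 with chloroquine alone (log2 difference 0.27, SE 0.15, adjusted p = 0.77). Atg9a was the lowest of the 5 in that comparison, at -0.38 log2 units. Exons of other genes cover 32.6% of its exon bases, mostly those of Gm29253 on the same strand, so its reads could be affected.

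The conjugation enzymes trim ATG8 proteins and join them to lipid. The Atg4 proteases expose the reactive end of an ATG8 protein and later free it from lipid, Atg7 is the E1-like and Atg3 the E2-like enzyme, and Atg10 joins Atg12 to Atg5, which then act with Atg16l1 as the E3-like complex. Atg4d (chr9:21265293-21277772, plus strand, GRCm38) had 3.14, 3.10 and 3.08 log2 CPM with ADI-PEG20 plus chloroquine, 3.76, 3.25 and 2.86 with ADI-PEG20, 3.43, 3.46 and 3.59 with chloroquine, and 3.55, 4.25 and 3.41 in untreated tumors. The combination libraries lay below every chloroquine and untreated library, and untreated 2 stood above all others. Against untreated the log2 difference of the combination was -0.63 (SE 0.26, 95% interval -1.20 to -0.07, limma adjusted p = 0.55), and without untreated 2 it was -0.38, with an unadjusted p over 0.05. Pooled over both chloroquine states, ADI-PEG20 averaged 3.20 and its absence 3.62 log2 CPM (log2 difference -0.42, SE 0.19, adjusted p = 0.48). Antisense exons of Kri1 cover 19.3% of the exon bases of Atg4d.

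In this role 8 genes were above 0 for the combination against untreated and 2 below, with a median of 0.11 log2 units, and no gene but Atg4d had an unadjusted p under 0.05. Atg7 had 4.73, 4.75 and 4.77 log2 CPM with ADI-PEG20 against 4.25, 4.64 and 4.69 in untreated tumors, and the log2 difference was 0.23 (SE 0.16, adjusted p = 0.69). Atg3 had 5.22, 5.24 and 5.13 log2 CPM with ADI-PEG20 against 5.29, 5.36 and 5.35 in untreated tumors, and the log2 difference was -0.14 (SE 0.15, adjusted p = 0.80). Neither gene overlapped between these groups, the E1-like enzyme lay above untreated and the E2-like one below, and both 95% intervals took in 0. Atg12 had the highest interaction of the 36, at 0.54 log2 units, with 4.88, 4.92 and 4.92 log2 CPM in the combination, 4.23, 4.60 and 4.97 with ADI-PEG20, 4.48, 4.59 and 4.56 with chloroquine and 4.83, 4.95 and 4.53 in untreated tumors.

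The ATG8 family forms the coat that cargo receptors bind. Map1lc3a and Map1lc3b encode LC3 proteins, and Gabarap, Gabarapl1 and Gabarapl2 the GABARAP branch. Gabarapl1 (chr6:129533160-129542346, plus strand, GRCm38) had 5.51, 5.47 and 5.53 log2 CPM with ADI-PEG20 plus chloroquine, 5.41, 4.95 and 5.26 with ADI-PEG20, 5.07, 5.27 and 5.09 with chloroquine, and 5.47, 5.46 and 5.17 in untreated tumors. The combination libraries were the highest 3 of the 12, although untreated 1 equalled the lowest of them at 2 decimals, and their SD was 0.03. Against chloroquine the combination was 0.36 log2 units higher, a fold of 1.28 (SE 0.16, 95% interval 0.03 to 0.69, limma adjusted p = 0.71). Each drug alone was lower than untreated (log2 difference -0.16 for ADI-PEG20 and -0.22 for chloroquine) and the combination was 0.14 higher, and the interaction was 0.52 (SE 0.22, 95% interval 0.05 to 0.99, adjusted p = 0.82). An antisense gene, 1700101I11Rik, covers 28.3% of the exon bases of Gabarapl1.

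Map1lc3b, the LC3 gene whose protein is the usual marker of autophagosomes, had 6.44, 6.62 and 6.70 log2 CPM with ADI-PEG20 plus chloroquine, 6.65, 6.34 and 6.86 with ADI-PEG20, 6.61, 6.43 and 6.35 with chloroquine, and 6.60, 6.65 and 6.40 in untreated tumors. All 4 groups overlapped. Map1lc3a spread most within ADI-PEG20, at 6.15, 5.18 and 5.96 log2 CPM, against 5.19, 5.54 and 5.54 in untreated tumors. It was the highest of the 36 for ADI-PEG20 against untreated, at 0.34 log2 units, and 2 of its 3 ADI-PEG20 libraries were above every other library while the remaining one was the lowest of all 12. Gabarap, the second most abundant member per length, had 7.40, 7.30 and 7.38 log2 CPM in the combination against 7.28, 7.12 and 7.05 with chloroquine (log2 difference 0.21, SE 0.15, adjusted p = 0.83).

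Cargo receptors carry ubiquitin-marked or other cargo to the ATG8 coat. Sqstm1 encodes p62, which links ubiquitin-marked cargo to LC3 and is itself degraded by autophagy, so that its protein builds up when lysosomes are blocked. Sqstm1 (chr11:50199366-50210827, minus strand, GRCm38) had 8.35, 8.90 and 8.97 log2 CPM with ADI-PEG20 plus chloroquine, 8.49, 8.68 and 8.72 with ADI-PEG20, 8.16, 7.96 and 8.45 with chloroquine, and 8.34, 8.69 and 8.20 in untreated tumors. Every ADI-PEG20 library lay above every chloroquine library, and the other pairs of groups overlapped. ADI-PEG20 pooled over both chloroquine states averaged 8.68 log2 CPM and its absence 8.30, a log2 difference of 0.38 or a fold of 1.30 (SE 0.14, 95% interval 0.09 to 0.68, limma adjusted p = 0.37).

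For Sqstm1 the combination was also higher than chloroquine alone, by 0.55 log2 units or a fold of 1.46 (SE 0.19, 95% interval 0.13 to 0.96, adjusted p = 0.61). Chloroquine alone against untreated gave -0.22 (95% interval -0.64 to 0.20), so the Sqstm1 transcript was not detectably higher with chloroquine. All 12 macrophage markers were above 0 for ADI-PEG20 pooled over both chloroquine states (11 with an unadjusted p under 0.05, median log2 difference 0.55). The same 12 were above 0 for the combination against chloroquine (7 with such a p, median 0.54), with the summed levels given above. Adipocyte markers were above 0 in both, 8 of 8 each (median 1.18 for pooled ADI-PEG20 and 0.89 for the combination against chloroquine). Skeletal muscle markers were below 0 in both, 17 of 17 each (5 with such a p for pooled ADI-PEG20 and 9 for the combination against chloroquine). The summed RNA quality list was lower in every combination library than in every chloroquine library. By gene it went the other way, with 10 of 12 above 0 for the combination against chloroquine (median 0.37). Keratinocyte markers were above 0 for 7 of 8 both for pooled ADI-PEG20 (median 0.81) and for the combination against chloroquine (median 1.11). For the interaction, which took in Gabarapl1, 17 of 17 skeletal muscle markers were below 0 (median -2.28). There 10 of 10 T cell markers were also below 0 (median -1.22) and 6 of 6 erythroid markers above 0 (median 2.02). Macrophage markers were split in the interaction, 6 above 0 and 6 below. Within the combination, replicate 1 had the highest macrophage sum (2120 CPM) and the lowest Sqstm1 (8.35 log2 CPM). ADI-PEG20 1 likewise had the highest macrophage sum of its group (2010 CPM) and the lowest Sqstm1 (8.49). Chloroquine 3 had the highest macrophage sum (1380 CPM) and the highest Sqstm1 (8.45) of its group. So did untreated 2 (1360 CPM and 8.69). The part of these lists in the Sqstm1 and Gabarapl1 values was not tested. Antisense exons of Mrnip cover 17.3% of the exon bases of Sqstm1.

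Calcoco1 is a receptor for the endoplasmic reticulum and the Golgi. Calcoco1 (chr15:102706777-102722178, minus strand, GRCm38) had 5.89, 6.30 and 6.13 log2 CPM with ADI-PEG20 plus chloroquine, 6.31, 6.24 and 6.31 with ADI-PEG20, 6.30, 6.33 and 6.34 with chloroquine, and 6.39, 6.67 and 6.39 in untreated tumors. All 9 treated libraries lay below the 3 untreated ones, which held for no other member. The log2 difference of the combination from untreated was -0.38 (SE 0.14, 95% interval -0.68 to -0.08, limma adjusted p = 0.49). In that comparison 17 of 17 skeletal muscle markers were below 0 (3 with an unadjusted p under 0.05, median log2 difference -2.17). Calcoco1, Ulk1 and Atg4d were lower there too. Untreated 2, the highest of the 12 libraries for Calcoco1 (6.67) and Atg4d (4.25), had a summed muscle level of 795 CPM. That lay within the combination's 658 to 961 CPM, while untreated 1 and 3 had 6600 and 4020 CPM. For the combination against untreated, 12 of 12 macrophage markers were above 0 (10 with such a p, median 0.71) and 7 of 8 adipocyte markers (median 0.60). The summed RNA quality list was lower in every combination library than in every untreated one. By gene, 9 of the 12 in that list were above 0 (median 0.14). The part of these lists in the 3 genes' values was not tested.

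**Figure D3:**
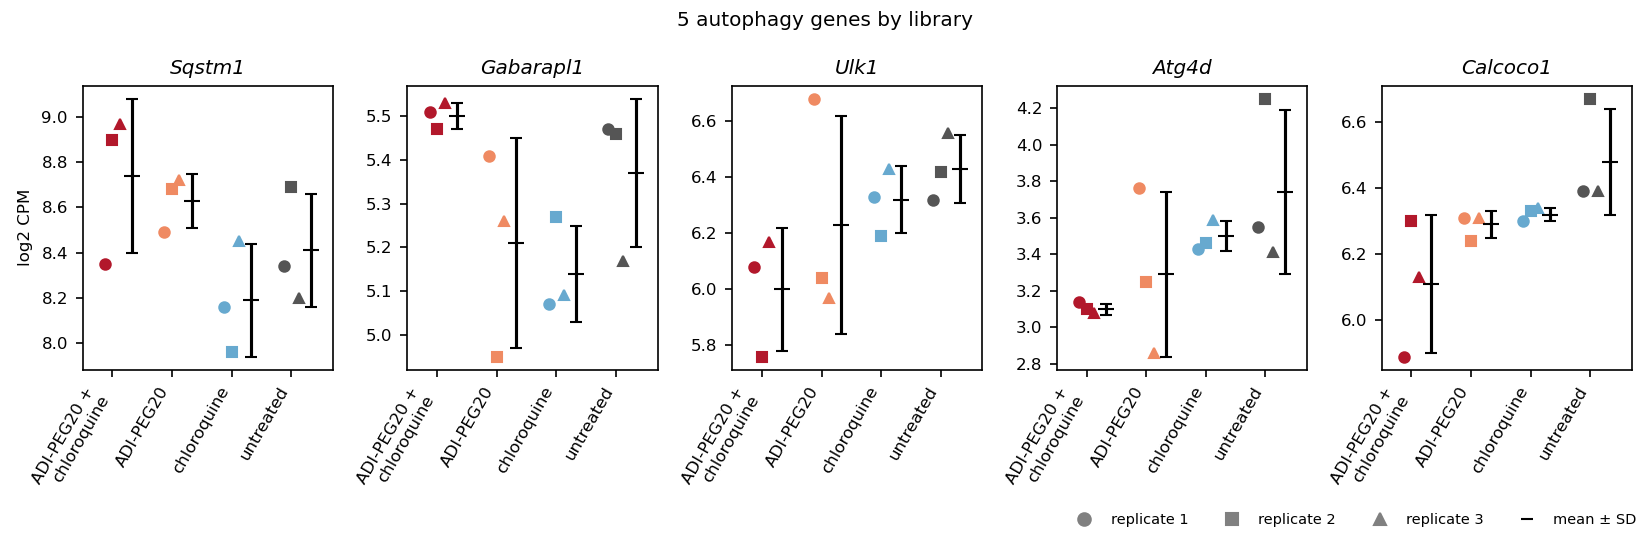
Log2 CPM of Sqstm1, Gabarapl1, Ulk1, Atg4d and Calcoco1 in each library (symbols give the replicate number), with the mean and SD of each group (n = 3) beside the points, for ADI-PEG20 plus chloroquine, ADI-PEG20, chloroquine and untreated tumors. Each panel has its own vertical range, which does not start at 0. Gabarapl1 and Atg4d are tightest in the combination, at SDs of 0.03, and the Sqstm1 libraries with ADI-PEG20 alone lie above those with chloroquine alone.

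The other receptors did not separate the groups in the comparisons with untreated. Tax1bp1 had 6.44, 6.49 and 6.54 log2 CPM with ADI-PEG20 plus chloroquine against 5.59, 6.25 and 6.41 with ADI-PEG20 alone, a log2 difference of 0.40 (SE 0.22, adjusted p = 0.89), and ADI-PEG20 1 was the lowest of the 12 libraries for this gene. Optn (optineurin) ran from 2.91 to 4.05 log2 CPM, both ends within the combination group. Nbr1 ran from 6.08 to 6.52 log2 CPM over the 12 libraries.

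Counting genes whose libraries did not overlap between groups gave 6 members for ADI-PEG20 plus chloroquine against untreated, of 36 (16.7%), beside 15.4% of all genes. They were Gabarapl1, higher, and Ulk1, Wipi1, Atg4d, Gabarapl2 and Calcoco1, lower. The count was 5 for ADI-PEG20 against untreated (13.9%, beside 10.1% of all genes), with Atg7 and Atg16l1 higher and Atg101, Atg3 and Calcoco1 lower. It was 3 for chloroquine against untreated (8.33%, beside 7.41%), with Becn1 higher and Wipi2 and Calcoco1 lower. The combination gave 3 against ADI-PEG20 (8.33%, beside 9.16%), with Gabarapl1 and Tax1bp1 higher and Wipi1 lower, and 10 against chloroquine (27.8%, beside 18.4%). Of those 10, Wipi2, Atg12, Gabarap and Gabarapl1 were higher in the combination and Ulk1, Becn1, Wipi1, Atg2a, Atg9a and Atg4d lower. With 6 libraries a side, 0 members were separated for pooled ADI-PEG20 (beside 0.686% of all genes) and 0 for pooled chloroquine (beside 0.049%).

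Spread between libraries of a group was low for most members, given here without a test. Their median SD within groups was 0.18 log2 units (0.10 for Atg16l1 to 0.37 for Optn), against 0.33 for all 16335 genes and 0.27 for the 11585 genes in the same range of mean level. Of the 36, 28 lay below the median SD of genes at their own level. The widest after Optn were Atg4a at 0.35 and Atg10 at 0.34, both scarce transcripts.

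**Figure D4:**
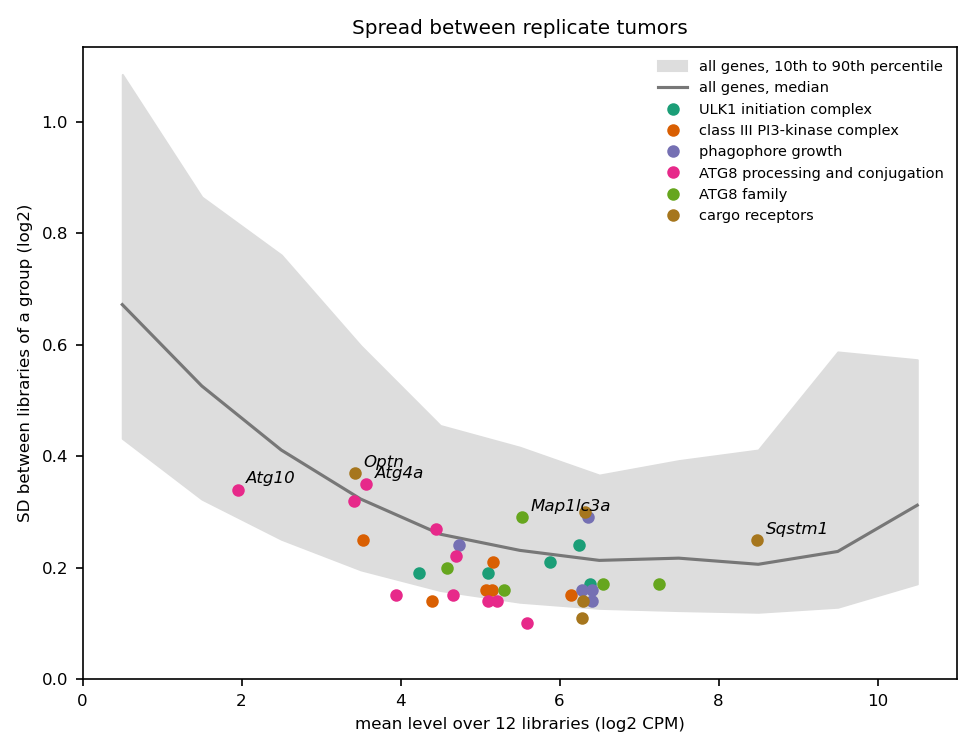
SD between libraries of a group (log2 units) against mean level (log2 CPM) for the 36 autophagy genes, coloured by role, over the band and median of all genes at each level. Of the 36 genes, 28 have an SD below the median of genes at their level, and Optn is the highest at an SD of 0.37.

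Promoter sequence was read for the members with a window in RefSeq (GRCm38.p6), which covers 250 bases before and 50 after a start. Windows were found for 30 of the 36 genes, 34 windows in all. Each was searched on both strands for CACGTG, the E-box at the core of the element bound by TFEB and MITF, for TGATGCAA, an ATF4 element, for TGACNNNGC, the core of the NRF2 element, and for GTAAACA, a FOXO element. CACGTG was in 4 windows (11.8%, against 7.15% of all 32851 windows), in Atg3, Atg5, Atg7 and Atg14, and TGACNNNGC was in 4 (11.8%, against 12.4%), in Atg13, Map1lc3b, Tax1bp1 and Ulk2. TGATGCAA and GTAAACA were in none (against 0.895% and 3.65% of all windows). In Atg7 and Atg14 the RefSeq start lies inside the gene as GENCODE annotates it. Printed below, 5′ to 3′ on the gene's strand, are Sqstm1 and Gabarapl1, the members with an unadjusted p under 0.05 for the combination against chloroquine, whose windows hold none of the motifs, and Atg3 and Atg5, whose windows hold CACGTG, shown in capitals. In Atg3 the motif begins 94 and 71 bases before the start, and in Atg5 it begins 14 bases before it. A match is a description of letters, and no match says only that these letters are not in this window.
Sqstm1 (chr11:50210771-50211070, minus): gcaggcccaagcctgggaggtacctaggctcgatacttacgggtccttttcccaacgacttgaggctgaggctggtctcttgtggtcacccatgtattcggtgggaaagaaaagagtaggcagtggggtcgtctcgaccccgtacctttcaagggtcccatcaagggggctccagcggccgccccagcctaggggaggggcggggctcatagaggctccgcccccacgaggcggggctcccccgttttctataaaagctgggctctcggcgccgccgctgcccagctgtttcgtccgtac
Gabarapl1 (chr6:129532942-129533241, plus): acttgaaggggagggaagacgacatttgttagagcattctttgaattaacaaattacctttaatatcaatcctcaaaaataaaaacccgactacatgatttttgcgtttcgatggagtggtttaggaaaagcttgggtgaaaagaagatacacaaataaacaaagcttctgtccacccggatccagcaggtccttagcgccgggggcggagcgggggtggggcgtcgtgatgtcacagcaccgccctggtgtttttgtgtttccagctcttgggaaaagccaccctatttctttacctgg
Atg3 (chr16:45158579-45158878, plus): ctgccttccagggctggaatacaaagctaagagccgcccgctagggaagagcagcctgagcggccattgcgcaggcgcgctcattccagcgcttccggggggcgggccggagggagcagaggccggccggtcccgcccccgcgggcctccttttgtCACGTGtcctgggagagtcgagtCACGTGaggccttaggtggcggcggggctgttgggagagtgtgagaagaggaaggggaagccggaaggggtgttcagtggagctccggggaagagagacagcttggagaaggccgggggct
Atg5 (chr10:44268089-44268388, plus): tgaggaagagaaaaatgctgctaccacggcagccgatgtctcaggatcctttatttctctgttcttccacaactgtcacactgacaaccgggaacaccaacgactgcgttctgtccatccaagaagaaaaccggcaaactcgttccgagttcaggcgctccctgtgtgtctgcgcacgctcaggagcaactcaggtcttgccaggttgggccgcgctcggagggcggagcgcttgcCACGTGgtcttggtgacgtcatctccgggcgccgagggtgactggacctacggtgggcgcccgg
For ADI-PEG20 against untreated, the 4 genes with CACGTG had log2 differences of -0.14 for Atg3, 0.21 for Atg5, 0.23 for Atg7 and 0.21 for Atg14, with adjusted p of 0.69 or more.

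Genes around the machinery were taken from 5 further lists, none with a gene past the adjusted threshold. Of 21 other genes of autophagosome formation, 14 were above 0 for ADI-PEG20 plus chloroquine against untreated (50.8% of all genes). None had an unadjusted p under 0.05 in any comparison with untreated. Such a p was found for 1 higher and 1 lower gene with the combination against chloroquine (6.78% of all genes). It was found for 1 higher gene each against ADI-PEG20 (3.42%), for pooled ADI-PEG20 (9.8%) and in the interaction (4.26%). Of 15 genes of autophagosome fusion with the lysosome, none had such a p in any of the 8 comparisons. Of 18 receptors for organelles and ferritin, 5 were above 0 and 13 below with ADI-PEG20 against untreated (48.7% of all genes above 0), and 3 had an unadjusted p under 0.05 (8.31% of all genes). Bnip3, a mitochondrial receptor known as a target of hypoxia signalling, was the largest of them, with 3.59, 4.64 and 5.05 log2 CPM with ADI-PEG20 against 5.69, 5.86 and 4.98 in untreated tumors. These libraries overlapped, and the log2 difference was -1.08 (SE 0.38, limma adjusted p = 0.52).

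Upstream of the machinery, 35 genes of mTORC1 and AMPK control were split evenly, with 16 above 0 and 19 below for the combination against untreated. Of these 35, 1 had an unadjusted p under 0.05 with a higher value and 1 with a lower one, beside 8.65% of all genes. Sesn2, a stress-induced sensor of leucine that restrains mTORC1, had 4.97, 5.46 and 5.57 log2 CPM with ADI-PEG20 plus chloroquine, 5.34, 5.12 and 5.19 with ADI-PEG20, 4.82, 4.82 and 5.35 with chloroquine, and 4.08, 4.74 and 4.51 in untreated tumors. All 9 treated libraries were above all 3 untreated ones. The log2 difference from untreated was 0.89 for the combination (SE 0.22, adjusted p = 0.32), 0.77 for ADI-PEG20 (adjusted p = 0.48) and 0.55 for chloroquine (adjusted p = 1). Sesn3, its relative, was on the other side, with a mean of 4.57 log2 CPM in the combination against 4.99 in untreated tumors (log2 difference -0.43, SE 0.18, adjusted p = 0.55).

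Of 13 transcription factors of autophagy and lysosome genes, 8 were above 0 for the combination against untreated. There 1 of the 13 had an unadjusted p under 0.05 (8.65% of all genes), and 2 had one for ADI-PEG20 against untreated (8.31% of all genes). Mitf, of the family that binds the E-box above, had 4.50, 4.44 and 4.22 log2 CPM with ADI-PEG20 plus chloroquine, 3.84, 3.47 and 4.25 with ADI-PEG20, 3.58, 3.31 and 3.77 with chloroquine, and 3.53, 3.71 and 3.76 in untreated tumors. The combination did not overlap untreated (log2 difference 0.73, SE 0.22, limma adjusted p = 0.41), while ADI-PEG20 alone did, with a mean of 3.85 against 3.66 log2 CPM. Tfeb of the same family had 4.39, 3.86 and 4.15 log2 CPM with ADI-PEG20 plus chloroquine, 4.81, 4.49 and 4.52 with ADI-PEG20, 4.15, 4.29 and 4.93 with chloroquine, and 4.03, 4.22 and 3.86 in untreated tumors. For Tfeb it was ADI-PEG20 alone that did not overlap untreated (log2 difference 0.57, SE 0.22, adjusted p = 0.55), the combination averaged 4.13 against 4.04 log2 CPM, and the interaction was -0.89 (SE 0.32, adjusted p = 0.82). Foxo1 had 4.24, 4.20 and 4.55 log2 CPM with ADI-PEG20 plus chloroquine, 5.16, 4.07 and 4.49 with ADI-PEG20, 3.91, 4.07 and 4.45 with chloroquine, and 3.92, 3.40 and 3.97 in untreated tumors. Both groups with ADI-PEG20 lay above untreated for Foxo1 (log2 difference 0.81, SE 0.27, adjusted p = 0.52 for ADI-PEG20 alone). For ADI-PEG20 against untreated, 12 of 12 macrophage markers were above 0 (8 with an unadjusted p under 0.05, median 0.63), as were 8 of 8 adipocyte markers (2 with such a p, median 1.25) and 10 of 10 T cell markers (2 with such a p, median 1.18). The part of these lists, and of those given above for the combination, in the values of the genes around the machinery was not tested.

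In the authors' deposited table, fitted in their own way, no member had an adjusted p under 0.05 in any comparison either. That table gives Sqstm1 a log2 fold of 0.58 for the combination against chloroquine with an adjusted p of 0.16, the lowest of any member in it, and Gabarapl1 0.36 with an adjusted p of 0.23. Against untreated the authors' deposited table gives the combination log2 folds of -0.54 for Atg4d, -0.36 for Calcoco1 and -0.42 for Ulk1, with adjusted p of 0.44, 0.40 and 0.41. For the KEGG set of animal autophagy, 133 genes of which 32 are members here, the authors' deposited table gives an adjusted p of 1 for the combination, 0.81 for ADI-PEG20 and 0.73 for chloroquine against untreated.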

How the data were processed

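RNA of 12 tumors was measured by sequencing after depletion of ribosomal RNA, per the labels' protocols. The submitters' processing notes name the aligner STAR 2.5.1a, featureCounts 1.4.6-p5 of Subread and Salmon 0.8.2, with bcl2fastq, limma and edgeR and the build mm10, and give no order of use. The authors deposited log2 CPM per library in a table of 16386 lines, which hold 16335 distinct genes, and the earliest line of each of the 51 repeats was kept. The lowest total of any gene was 85 reads, so scarce genes had been removed before deposit. The deposited values are log2 of reads plus 0.5 over a scaled library size, and 100% of those under 2000 reads gave whole reads within 0.02, from which depths of 15501998 to 28410940 reads per library were taken. Per the file headers, the authors deposited log2 fold changes, a p-value and an adjusted p-value for each comparison, a fold change given as a score, and KEGG set tables with p-values and a score; these were only read.

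The deposited log2 CPM of all 12 libraries entered 1 limma fit (version 3.58.1, R 4.3.3), using a trend in expression and no covariate. The 8 contrasts were each treatment against untreated, the combination against each drug, each drug pooled over the states of the other, and the interaction (combination minus chloroquine, less ADI-PEG20 minus untreated). Tests were two-sided, adjusted by Benjamini and Hochberg over all 16335 genes, and intervals are at 95%. Libraries were grouped by their labels. The fit was tested on simulated data with planted changes larger than any difference of a member here. That test does not show how well smaller shifts would be found. Positions, exon lengths and overlaps come from GENCODE M21 (GRCm38, the build called mm10). Members with an unadjusted p under 0.05 in at least 1 contrast are given in every library, and the others by role. Of genes in the other lists, at most 4 a list with such a p were named. The members and all 15 other lists, of 210 genes with 196 in the table, were chosen with earlier results of these data known. Alternatives changed the scaling, the reads added, the filter, the weights, the trend, the block, the groups in the fit, and left out each library.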

Additional observations from a re-analysis of the deposited data

How the results depend on the processing

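The count of members past the adjusted threshold stayed at 0 in all 8 comparisons under the 19 alternatives (18 for the pooled comparisons and the interaction, which need all 4 groups), and the lowest adjusted p of any member was 0.14, for ADI-PEG20 pooled over chloroquine states without ADI-PEG20 1. Of 298 alternative values of counts and medians, 294 were close to those reported. Centring each library on its median gene takes the same value off every gene of a library, so all genes of a comparison shift by the same amount. The median log2 difference of the members for the combination against untreated was then 0, beside 0.05. The median of all genes in that comparison was -0.048 (log2), beside 0.01. Leaving out 1 library gave medians of -0.02 to 0.06 for ADI-PEG20 against untreated (0.06 without ADI-PEG20 2), -0.08 to 0.02 for the combination against ADI-PEG20 (-0.08 without the combination's replicate 3) and -0.06 to 0.05 for the interaction (-0.06 without ADI-PEG20 2).

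No direction of the 5 named members turned in 149 alternative values. Sqstm1 stayed at 0.43 to 0.74 for the combination against chloroquine and at 0.33 to 0.48 for pooled ADI-PEG20. Gabarapl1 ran from 0.39 to 0.62 for the interaction. Against untreated, the combination ran from -0.79 to -0.38 for Atg4d, from -0.48 to -0.27 for Calcoco1 and from -0.51 to -0.31 for Ulk1. Sqstm1 for pooled ADI-PEG20 had an unadjusted p under 0.05 in all its alternatives, while each other result named in this paragraph, and those of Gabarapl1 against chloroquine and of Atg4d for pooled ADI-PEG20, had one over 0.05 without at least 1 of the libraries. Members with an unadjusted p under 0.05 numbered 0 to 7 for the combination against chloroquine, 7 with those groups alone in the fit. All genes rose in number there too. Of 16335 genes, 979 had such a p with a higher value and 1081 with a lower one, beside 508 and 599 with all 4 groups.

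With the replicate number as a block, 0 members passed in each comparison, while 31 of all genes passed for pooled ADI-PEG20 and 8 for the combination against untreated, beside 0 without the block. Of all genes, none of them a member, 72 passed for the combination against chloroquine with those groups alone in the fit and 1 with voom or without ADI-PEG20 3. For pooled ADI-PEG20, 47 passed with voom, 19 without ADI-PEG20 1, 15 without untreated 3, 13 without untreated 2, 8 without chloroquine 3 and 3 without ADI-PEG20 2, and 1 passed for ADI-PEG20 against untreated without untreated 3. Deviations of libraries with the same number correlated at -0.0499 to 0.199, over 0.1 in 9 of 18 pairs, against 3 of 36 pairs with different numbers. The labels do not say what a number marks. For the combination with chloroquine all 3 same-number pairs were over 0.1, and with the block limma gave 0 members called there, with log2 differences of 0.55 for Sqstm1 (adjusted p = 0.49) and 0.36 for Gabarapl1 (adjusted p = 0.63). Counting error is small at these depths except for scarce members such as Atg10, which had 34 reads in its lowest library.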
